A study of Mus musculus with 5 samples.

Results

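The comparison set the hearts of mice with myocardial infarction (MI) beside a sham-operated heart 7 days after surgery, in 3 of the 5 Visium sections of the series. The mice were wild-type C57BL/6 and were operated on postnatal day 1, an age at which the study describes the heart as regenerative. The hearts compared were taken 7 days later, near the age at which the study calls uninjured hearts nonregenerative. In MI the left anterior descending coronary artery was ligated, and sham animals had the operation without the ligation. Each transverse section was 10 µm thick and lay 200 µm lower than the suture, or than its place in a sham heart. There were 2 MI sections at day 7, called replicates 1 and 2, and 1 sham section, so the sham value of a gene has no replicate error. The other 2 sections, 1 sham and 1 MI, were taken at day 3 and served here for values that the choice of genes did not use. In Visium, RNA is captured on an array of barcoded spots under the tissue, each large enough to hold several cells of different types.

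Levels are given as CPM. Values of each spot were scaled to a total of 1000000 over the genes listed in all 3 tables, without the mitochondrially encoded (mt-) and globin (Hba- and Hbb-) genes, and then averaged over the spots of a section. Spots with at least 1000 unique molecular identifiers (UMIs) were used, which kept 960, 688 and 786 spots of the sham section and MI replicates 1 and 2. Differences are on the scale of log2(CPM + 1), MI minus sham, which understates the change of low genes. Of 12916 genes with a mean of at least 1 CPM, 8746 differed from the sham section in the same direction in both MI replicates. Of these, 5271 (40.8% of the genes tested) were higher in MI and 3475 (26.9%) were lower. The split rests on the scaling, since TMM scaling gave 4160 higher and 4575 lower, median-of-ratios scaling 4264 and 4475, and keeping the mt- and globin genes in 3205 and 4718.

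After a coronary artery is closed, heart muscle downstream dies, phagocytes clear it, and fibroblasts lay down collagen in the gap. In the neonatal mouse this scar is transient and the surviving cardiomyocytes can still divide, while the ability fades within days of birth. Complement proteins tag dead cells for uptake, and matrix glycoproteins such as the fibulins and thrombospondins organise the new matrix.

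The sections differed in depth, sex and composition. The sham section and MI replicate 2 had similar depth, with medians of 22934 and 20965 UMIs per spot, and both carried the Y-linked gene Ddx3y. MI replicate 1 was deeper, at 53988.5 UMIs per spot, and carried Xist. The share of mt- genes was 15.7% in sham, 24.7% in MI replicate 1 and 15.5% in MI replicate 2. The tables hold values that the authors corrected for depth in each section. Kept spots with no neighbouring spot numbered 0 in the sham section, 2 in MI replicate 1 and 3 in MI replicate 2. With 1 sham section, MI cannot be told apart from other differences between the sham section and the MI sections. Where RNA of a cell type is lower in a section, fewer cells and less RNA per cell cannot be told apart either.

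At the level of whole sections, limma with Benjamini-Hochberg adjustment called 0 genes higher and 0 lower (0% of the genes tested in each direction). The lowest limma adjusted p was 0.0846. Before adjustment, 496 genes (3.84%) lay above sham and 193 (1.49%) below it with a limma p under 0.05. Together these shares lie near what a threshold of 0.05 passes with no difference. The fit had 1 residual degree of freedom, which came from the 2 MI replicates. A rule of size and spread was therefore used beside it. A gene was called shifted when both MI replicates lay at least 1.5-fold from sham on the same side, when the smaller of these log2 ratios exceeded the difference between the replicates, and when the higher group had at least 5 CPM. By this rule 121 genes (0.937% of those tested) were shifted higher and 36 (0.279%) shifted lower, of which 47 and 14 reached 20 CPM in the higher group. With a single MI section there is no demand that replicates concur, and the counts were 366 and 98 without MI replicate 1 and 279 and 226 without MI replicate 2. The lowest median of all genes over the settings tried was -0.04 and the highest 0.05, so no scaling moved the whole table by more than 0.1.

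**Figure D1:**
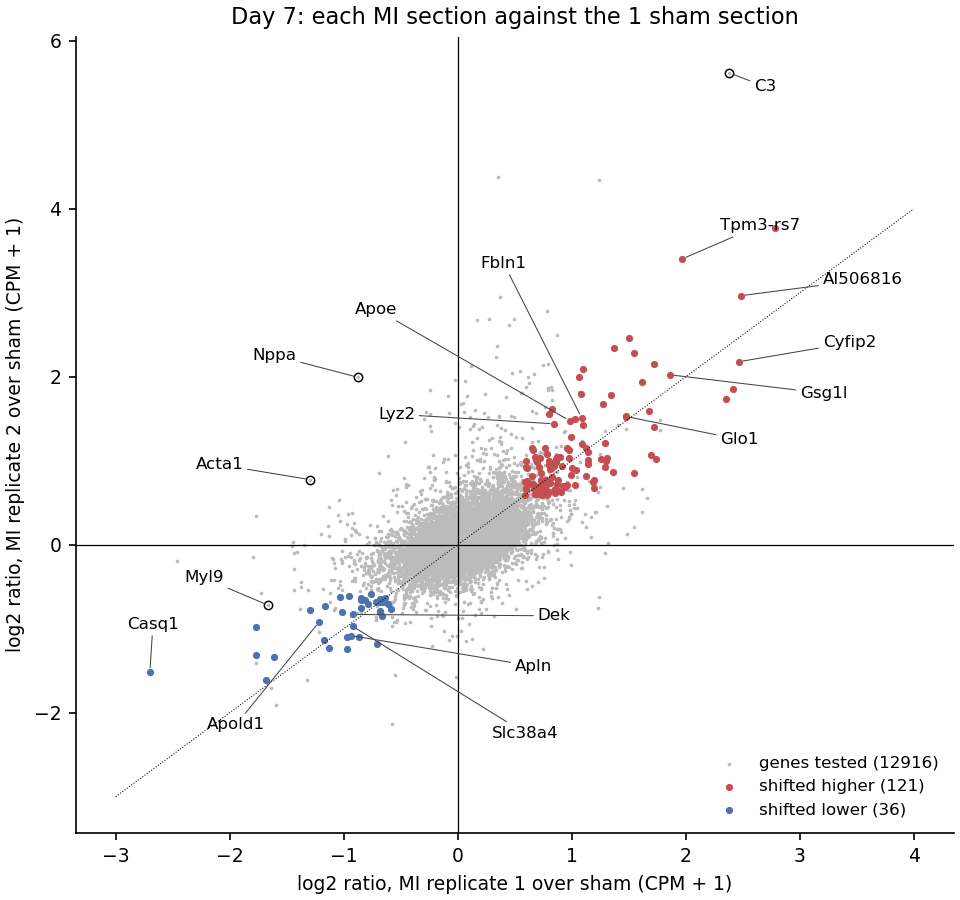
Each point is a gene, with its log2 ratio of MI replicate 1 to the sham section on the x axis and of MI replicate 2 to the same sham section on the y axis, both of CPM + 1. The 121 genes shifted higher (red) and the 36 shifted lower (blue) lie near the dotted line of equal ratios, while C3, Nppa, Acta1 and Myl9 (open circles) differed between the MI replicates by more than the rule allows.

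The steadiest differences lay in a small set of genes that were higher in both MI replicates by nearly equal amounts. Glo1 encodes glyoxalase 1, which detoxifies methylglyoxal, a by-product of glycolysis, and lies on chromosome 17 from 30584936 to 30626871 (GRCm38). It was at 123 CPM in sham and at 342 and 355 CPM in MI replicates 1 and 2. On the log2 scale Glo1 differed by 1.5 (SE 0.13, limma adjusted p 0.0846), and it was detected in 88.3% of sham spots against 100% and 99.7% of MI spots. AI506816, a processed transcript on chromosome 5 from 23698296 to 23712667, was at 2.73 CPM in sham and at 19.9 and 28.1 CPM in MI. It was found in 5% of sham spots and in 54.1% and 35.9% of the spots of MI replicates 1 and 2. Both MI replicates lay well above sham, as the choice of genes requires, and AI506816 had a difference of 2.73 (SE 0.24, limma adjusted p 0.0846).

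Cyfip2 encodes a subunit of the WAVE complex, which drives branching of actin filaments. It was at 6.11 CPM in sham and at 38.4 and 31.2 CPM in MI, a difference of 2.32 (SE 0.19, limma adjusted p 0.0846). On chromosome 11, Cyfip2 spans 46193850 to 46312859, and its neighbours Thg1l (45946843 to 45955494) and Gm12167 (46342287 to 46345020) were shifted higher as well. Thg1l was at 1.98 CPM in sham against 7.28 and 7.57 CPM, and Gm12167 at 1.46 against 12.1 and 7.88 CPM. Gsg1l, an auxiliary subunit of AMPA-type glutamate receptors (chromosome 7, 125878420 to 126082411), was at 4.81 CPM in sham and at 20.1 and 22.6 CPM in MI. Zfp945, a zinc finger gene, was at 10.2 CPM in sham and at 36.0 and 28.7 CPM in MI. Cyfip2 is also a gene in which C57BL/6 substrains are known to differ. Of 6 such genes tested, 3 were higher and 2 lower in both MI replicates (40.8% and 26.9% of all genes), and 2 of them were shifted higher (0.937% of all genes). Nnt, another of them, was at 16.5 CPM in sham and 26.5 and 18.2 CPM in MI, and the part of substrain in these values was not tested.

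Tpm3-rs7, a copy of the tropomyosin gene Tpm3, was at 3.52 CPM in sham and at 16.7 and 46.9 CPM in MI, while Tpm3 itself was at 90.9 CPM in sham and at 55.1 and 39.6 CPM in MI. Reads of the pair cannot be assigned with certainty, so both values are uncertain. Summed, Tpm3 and Tpm3-rs7 were at 94.4 CPM in sham and 71.9 and 86.5 CPM in MI, log2 ratios of -0.39 and -0.12.

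Scd4, a fatty acid desaturase, was at 12.3 CPM in sham and 30.9 and 26.04 CPM in MI. Acss1, which makes acetyl-CoA from acetate in mitochondria, was at 52.7 CPM in sham and 116 and 93.5 CPM in MI. Both were above sham in both MI replicates. They were picked after their values were seen and belong to no list used here. Within the list of 22 genes of fatty acid and ketone use, 10 were higher and 5 lower in both replicates (40.8% and 26.9% of all genes) and 1 was shifted higher (0.937% of all genes), with a median of 0.04 that equals the median of all genes tested (0.04). Oxct1, which starts the use of ketone bodies, ran the other way, from 351 CPM in sham to 216 and 245 CPM in MI.

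**Figure D2:**
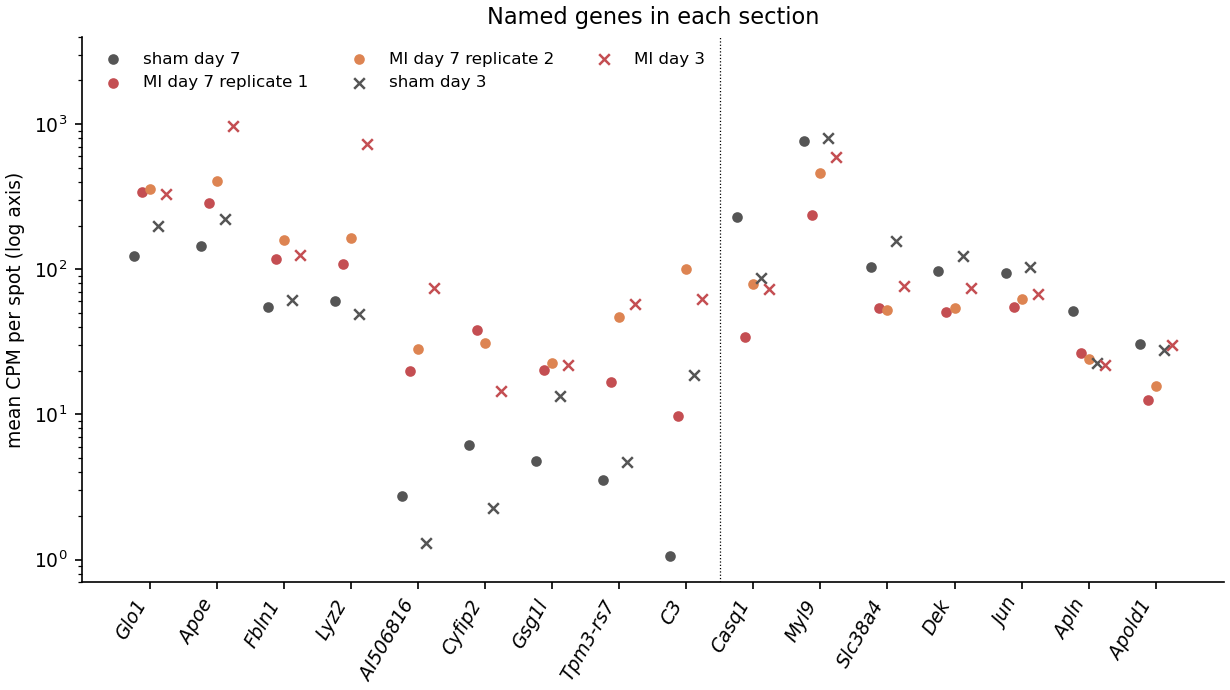
Mean CPM per spot (log axis) of 16 named genes in the 3 sections of day 7 (circles) and the 2 sections of day 3 (crosses), with sham in grey and MI in red or orange. Left of the dotted line the day 7 MI circles lie above the sham circle, for Glo1 at 342 and 355 against 123 CPM, and right of it they lie below, for Casq1 at 34.4 and 79.6 against 229 CPM.

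Macrophage and monocyte genes were higher in MI throughout their list. Of 14 genes tested, 14 were higher in both MI replicates and 9 were shifted, where 40.8% and 0.937% of all genes tested were. The list median was 0.79 beside 0.04 over all genes. Lyz2, lysozyme of phagocytes, was at 60 CPM in sham and at 109 and 164 CPM in MI (difference 1.14, SE 0.24, limma adjusted p 0.419). The C1q chains that start the classical complement pathway were each higher in both replicates. C1qa was at 23.4 CPM in sham and at 38.4 and 48.7 CPM in MI, C1qb at 21.3 against 33.0 and 40.8 CPM, and C1qc at 22.4 against 38.9 and 38.9 CPM. Ctss, a lysosomal protease of antigen-presenting cells, was at 7.76 CPM in sham and 16.4 and 20.3 CPM in MI. Mrc1, a marker of resident macrophages, was the flattest member, at 19.1 CPM in sham and 22.6 and 20.1 CPM in MI. Summed over the list, macrophage genes were at 237 CPM in sham and at 390 and 494 CPM in MI. Spots with macrophage as the highest cell type score were nonetheless fewer in MI, at 3.05% and 1.65% of spots against 7.29% in sham.

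Apoe, the lipid carrier that macrophages secrete, was shifted at a high level. It was at 145 CPM in sham and at 287 and 405 CPM in MI, a difference of 1.23 (SE 0.21, limma adjusted p 0.335), and it was shifted in 5 of the 5 spot classes described below. Lgals3, galectin-3 of activated phagocytes, was at 2.18 CPM in sham and 5.81 and 12.6 CPM in MI. Trem2, a lipid receptor of phagocytes, was at 2.6 CPM in sham and 6.69 and 8.70 CPM in MI. Of 4 neutrophil and mast cell markers tested, 3 were higher in both replicates (40.8% of all genes) and 1 was shifted higher (0.937% of all genes). The mast cell chymase Cma1 was at 1.04 CPM in sham and 9.40 and 5.77 CPM in MI. All of these were above sham in both replicates.

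Complement genes were also higher in every member tested. All 10 were higher in both MI replicates (40.8% of all genes) and 4 were shifted (0.937% of all genes), with a median of 0.87. This list holds C1qa, C1qb and C1qc of the macrophage list as well. C3, the central component, was at 1.06 CPM in sham, where 12 of 960 spots held a value above 0, and at 9.72 and 100 CPM in MI. The MI replicates differed too much for C3 to count as shifted, and the 10% of spots with the most C3 held 98.0% of its sum in replicate 1 and 88.6% in replicate 2. Clu, the complement inhibitor clusterin, was at 80.8 CPM in sham, 82.5 CPM in replicate 1 and 261 CPM in replicate 2, so its difference rests on replicate 2.

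Fibroblast and matrix genes were higher with a wider spread between replicates. Of 12 fibroblast markers, 11 were higher in both MI replicates (40.8% of all genes) and 2 were shifted higher (0.937% of all genes), with a median of 0.46 beside 0.04 over all genes. Fbln1, a fibulin that binds fibronectin and elastic fibres (chromosome 15, 85205949 to 85286535), was at 55.2 CPM in sham and at 118 and 160 CPM in MI. It had the largest difference of the fibroblast list, 1.30 (SE 0.19, limma adjusted p 0.307). Gsn, the actin-severing protein gelsolin, was at 234 CPM in sham and 388 and 371 CPM in MI. The fibrillar collagens, the load-bearing fibres of scar, were higher in 7 of 7 members but shifted in 0, with medians of 0.28 in replicate 1 and 0.84 in replicate 2. Col1a1 was at 762 CPM in sham and at 1072 and 1499 CPM in MI, and Col3a1 at 2323 against 2970 and 3519 CPM. Postn, the matricellular protein of activated fibroblasts, was at 763 CPM in sham, 765 CPM in replicate 1 and 988 CPM in replicate 2. Fn1 showed the same pattern, with 516 CPM in sham against 519 and 855 CPM.

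In the list of matrix growth and retinoid factors, 13 of 14 members were higher in both replicates (40.8% of all genes) and 2 were shifted higher (0.937% of all genes). The list median was 0.28 beside 0.04 over all genes. Ptn, the secreted growth factor pleiotrophin, was at 110 CPM in sham and at 179 and 220 CPM in MI, a difference of 0.84 (SE 0.16, limma adjusted p 0.398). Igfbp6, which binds insulin-like growth factor 2, was at 4.84 CPM in sham and 11.2 and 22.4 CPM in MI. Outside this list, Serpinf1, an inhibitor of vessel growth, was at 15.7 CPM in sham and 25.4 and 35.5 CPM in MI. Adamtsl2, a protein of the microfibrils, was at 10.8 CPM in sham and 22.1 and 25.3 CPM in MI. Among epicardial and mesothelial markers, 5 of 7 were higher in both replicates (40.8% of all genes). Msln and Krt19 were the 2 shifted higher (0.937% of all genes), Msln from 0.481 to 3.2 and 7.13 CPM and Krt19 from 1.73 to 7.37 and 9.46 CPM. Msln was found in 7 of 960 sham spots, so its level there is near the least that can be measured.

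**Figure D3:**
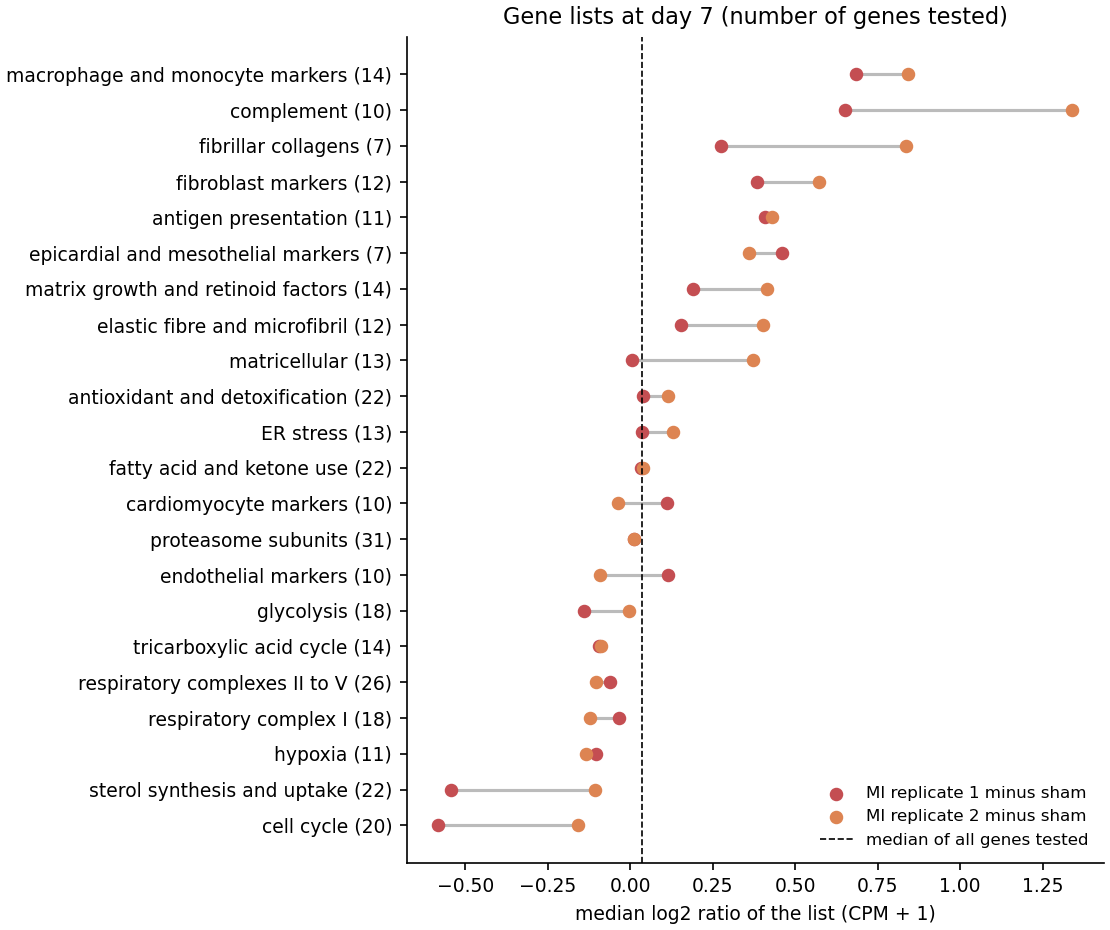
Median log2 ratio to sham (of CPM + 1) for 22 gene lists, as 1 point for each MI replicate joined by a line, with the number of genes tested in brackets and the median of all genes tested as a dashed line. The macrophage list lies at 0.68 and 0.84 and the proteasome list at 0.01 and 0.01, while the cell cycle list spans -0.58 to -0.16.

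Among the genes lower in MI, Casq1, the skeletal-type calsequestrin that stores calcium in the sarcoplasmic reticulum, had the largest difference, -2.11 (SE 0.43, limma adjusted p 0.416). It was at 229 CPM in sham and at 34.4 and 79.6 CPM in MI, and was found in 95.1% of sham spots against 68.9% and 66.0% of MI spots. Other skeletal muscle genes gave mixed values. Acta1 was at 205 CPM in sham and at 82.9 and 352 CPM in MI, Tnni2 at 2.52 against 4.81 and 3.52 CPM, and 6 of the 12 list members were not tested because of low or absent values. At day 3, Casq1 was at 86.5 CPM in sham and 73.4 CPM in MI, both below sham at day 7.

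Apln, Apold1 and Slc38a4 were lower by similar amounts in both replicates. Apln encodes apelin, a peptide that acts on the vasculature and on heart contraction (chromosome X), and was at 52.0 CPM in sham and at 26.7 and 24.0 CPM in MI, a difference of -1.01 (SE 0.15, limma adjusted p 0.307). Apold1, an early-response gene of endothelial cells, was at 30.6 CPM in sham and at 12.6 and 15.7 CPM in MI. Slc38a4, an imprinted amino acid transporter, was at 104 CPM in sham and 54.4 and 52.4 CPM in MI (difference -0.95, SE 0.13, limma adjusted p 0.283). In each of these the MI replicates lay close together and below sham. The immediate early genes Jun and Nr4a1 were shifted lower, Jun from 94.2 to 55.2 and 62.2 CPM and Nr4a1 from 20.8 to 11.1 and 12.8 CPM. The kinase Pim1 went from 28.0 to 17.1 and 17.6 CPM and the secreted protein Metrn from 44.3 to 27.7 and 27.3 CPM. The immediate early and heat shock list as a whole had a median of -0.03.

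Cell cycle genes lay below sham in both replicates in 17 of 20 members, where 26.9% of all genes did, and 1 was shifted lower, where 0.279% of all genes were. The median was -0.35 beside 0.04 over all genes, and the replicates differed in size. The list median was -0.58 in replicate 1 and -0.16 in replicate 2. By spot class, described below, it was -0.34 in CM1, -0.43 in FB, -0.35 in EC and -0.68 in EndoEC spots, and 0.11 in CM4 spots, where 5 members were higher and 3 lower in both replicates (48.2% and 24.8% of all genes there). Dek, a chromatin protein of dividing cells, was the shifted member, at 97.0 CPM in sham and 50.8 and 54.1 CPM in MI (difference -0.87, SE 0.13, limma adjusted p 0.307). Mki67, the usual proliferation marker, was at 66.3 CPM in sham, 41.0 CPM in replicate 1 and 56.3 CPM in replicate 2. Top2a was at 50.1 CPM in sham and at 34.8 and 49.7 CPM in MI, so replicate 2 lay at the sham level. A list of 22 genes of sterol synthesis and uptake, written after values had been seen, was lower in both replicates in 17 members (26.9% of all genes) with 0 shifted and medians of -0.54 and -0.11.

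Genes of respiration lay below sham more often than all genes tested, by small amounts. In the list of 18 nuclear genes of respiratory complex I, 13 were lower in both replicates (26.9% of all genes) and 0 were shifted, with a median of -0.08 beside 0.04 over all genes. In the list of 26 genes of complexes II to V, 18 were lower (26.9% of all genes) and 0 shifted, with a median of -0.07. Ndufs7, among the complex I members furthest below sham, was at 728 CPM in sham and 579 and 656 CPM in MI. Under TMM and median-of-ratios scaling and with the mt- genes kept in, complex I had medians of -0.12, -0.12 and -0.16. The medians of all genes fell as well, to -0.008, -0.004 and -0.04. A negative list median that keeps its sign under these settings is therefore no separate support. Cardiomyocyte markers had a median of 0.02, endothelial markers of 0.01 and hypoxia genes of -0.12. The natriuretic peptide Nppa, a stress marker of cardiomyocytes, was at 368 CPM in sham, 200 CPM in replicate 1 and 1468 CPM in replicate 2, so the replicates lay on opposite sides of sham. Myh7, the fetal myosin heavy chain, was at 621 CPM in sham and 835 and 1073 CPM in MI.

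Nfe2l1, the gene at the centre of the study, encodes a transcription factor of the CNC family, and its known targets include proteasome and antioxidant genes. Nfe2l1 was at 120 CPM in sham and at 140 and 133 CPM in MI, a difference of 0.18 (SE 0.13, limma adjusted p 0.969). It was higher in both replicates in 5 of the 5 spot classes and shifted in 0. Nfe2l2, its close relative, was at 57.9 CPM in sham and 62.4 and 57.3 CPM in MI. Of their partners and inhibitors, Keap1 was at 38.2 CPM in sham against 38.9 and 44.1 CPM, Bach1 at 17.1 against 19.4 and 18.9 CPM, and Mafk at 20.9 against 16.1 and 18.8 CPM. The 31 proteasome genes had a median of 0.01, with 11 higher and 7 lower in both replicates (40.8% and 26.9% of all genes) and 0 shifted. Among 22 antioxidant and detoxification genes the median was 0.09, and 2, Glo1 and Hmox1, were shifted higher (0.937% of all genes). Hmox1, haem oxygenase 1, was at 8.61 CPM in sham and 16.6 and 15.5 CPM in MI.

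To ask where in the sections the genes differed, spots were classed by the cell type whose score was the highest of 11. The authors had derived the scores from the same expression values, so classes are not independent of the genes that define them. The classes with at least 20 spots in every section were the cardiomyocyte state CM1, CM4, an immature cardiomyocyte state that the study ties to regeneration, and the fibroblast (FB), endothelial (EC) and endocardial (EndoEC) classes. CM1 was the highest score in 39.9% of sham spots (exact Clopper-Pearson 95% interval 36.8% to 43.1%), and in 49.0% (45.2% to 52.8%) and 61.8% (58.3% to 65.2%) of the spots of MI replicates 1 and 2. FB had 27.7% of sham spots (24.9% to 30.7%) and 13.7% (11.2% to 16.5%) and 11.96% (9.77% to 14.4%) of MI spots. CM4 had 6.04% of sham spots (4.62% to 7.74%) and 11.0% (8.80% to 13.6%) and 10.9% (8.85% to 13.3%) of MI spots. EC had 7.19% of sham spots and 11.6% and 3.94% of MI spots, so its replicates fell on both sides of sham. EPI was the highest score in 0 of 960 sham spots (95% interval up to 0.38%) and in 6 and 15 spots of the MI replicates. These intervals cover counting error only and take spots as independent, which neighbouring spots are not. The epicardial markers Msln and Krt19 were higher in the same MI sections.

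Most of the genes shifted in whole sections differed in the same direction in the classes. Of the 121 genes shifted higher, 120 were higher in both replicates in CM1 spots, where 40.8% of the genes tested were, and 119 of 121 in FB spots (37.8% of those tested). In CM4 spots 107 of 121 were higher (48.2% of those tested), in EC spots 103 of 119 (34.4%) and in EndoEC spots 95 of 118 (33.6%). Of the 36 genes shifted lower, 35 were lower in CM1 spots, where 28.9% of the genes tested were, and 36 in FB spots (26.8%). The same held for 31 of 35 in CM4 spots (24.8%), 29 of 34 in EC spots (30.2%) and 32 of 36 in EndoEC spots (34.7%). The whole-section mean holds these spots, so these counts describe how the difference was spread and support nothing by themselves. In 75 of the 121 the direction was the same in 5 of 5 classes, and 18 were shifted in each of the 5. AI506816, Cyfip2, Gsg1l, Glo1 and Apoe were among the 18. Of the 36 shifted lower, 23 had the same direction in 5 classes and 1, AW112010, was shifted in all 5. AW112010, a long noncoding RNA, was at 21.1 CPM in sham and 10.3 and 8.35 CPM in MI.

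**Figure D4:**
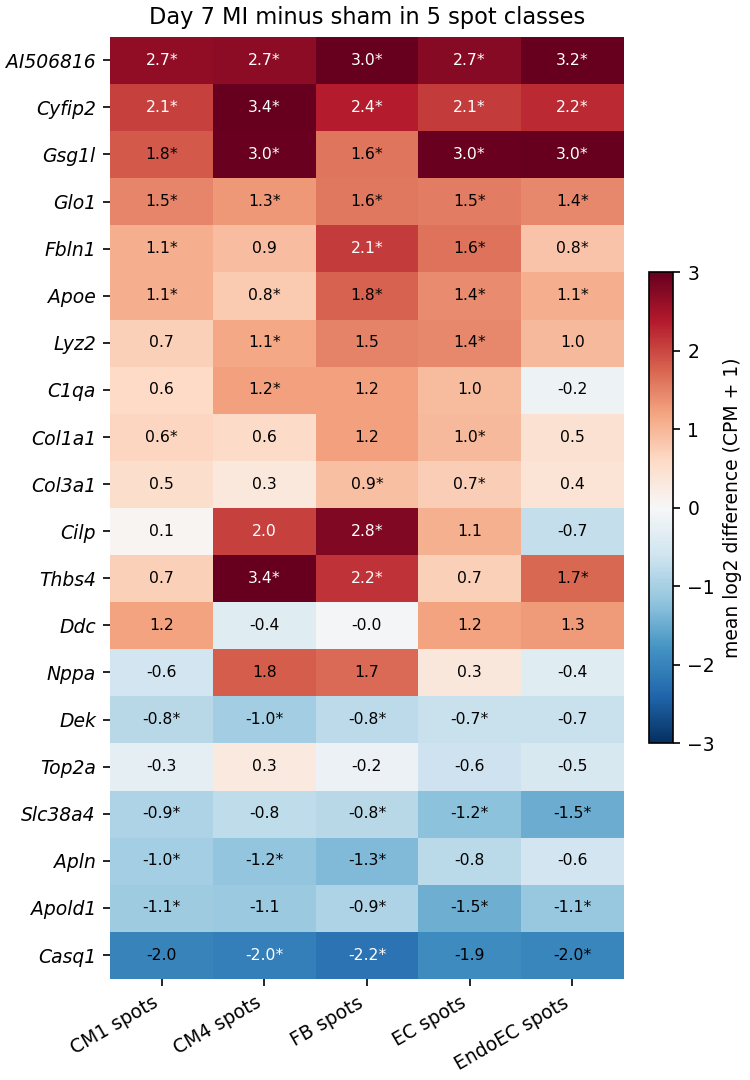
Mean log2 difference between MI and sham (of CPM + 1) for 20 genes in the 5 spot classes, in red where MI was higher and blue where it was lower, with an asterisk where the gene met the rule for a shifted gene in that class. Glo1 lies between 1.3 and 1.6 in the 5 classes, while Fbln1 runs from 0.8 in EndoEC spots to 2.1 in FB spots.

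Within CM1 spots, 139 genes were shifted higher (1.09% of 12744 tested) and 50 lower (0.392%), against 300 and 135 without MI replicate 1 and 405 and 289 without MI replicate 2. Glo1 was at 127 CPM in sham CM1 spots and 348 and 359 CPM in MI. Among genes of at least 20 CPM in the higher group, the lowest shifted ones by the smaller ratio were AW112010 (25.3 against 11.7 and 8.91 CPM), Apold1 (28.5 against 11.6 and 14.8 CPM) and Slc38a4 (102 against 54.1 and 51.8 CPM). Casq1 was lower in CM1 spots too, with a difference of -2.00 on the log2 scale. In CM1 spots Casq1 was not shifted, since the replicates differed by more than the rule allows.

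In FB spots, matrix genes lay further above sham than in whole sections. Complex I genes were lower there in both replicates in 18 of 18 members and cardiomyocyte markers in 5 of 10 (26.8% of all genes there). Their medians were -0.30 and -0.18. FB spots were a smaller share of the MI sections, and the part of their cell mixture in these values was not tested. In FB spots 372 genes were shifted higher (2.84% of 13104 tested) and 115 lower (0.878%), against 1238 and 870 without MI replicate 1 and 798 and 351 without MI replicate 2. Fbln1 was at 90.6 CPM in sham FB spots and at 325 and 465 CPM in MI. Cilp, a matrix protein of fibroblasts and cartilage, was at 4.51 CPM in sham FB spots and 24.0 and 56.8 CPM in MI, and Fmod, which binds collagen fibrils, at 0.986 against 13.2 and 31.7 CPM. All 3 were above sham in both replicates. The median of the fibrillar collagens was 1.07 in FB spots beside 0.74 in EC, 0.52 in CM1, 0.35 in CM4 and 0.24 in EndoEC spots. The macrophage list had a median of 1.21 in FB spots beside 0.92 in EC, 0.69 in CM1, 0.65 in CM4 and 0.59 in EndoEC spots, and the difference between classes was not tested for lists. Among shifted genes of at least 20 CPM in the higher group, Casq1 (296 against 48.8 and 82.2 CPM) and Grk3 (30.7 against 13.9 and 11.8 CPM) were the lowest in this class by the smaller ratio. Ccl21a, a chemokine of lymphatic endothelium, was shifted lower in FB spots at a lower level, at 5.93 against 0.494 and 0.600 CPM.

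CM4 spots held 1021 genes shifted higher (7.9% of 12918 tested) and 166 lower (1.29%), on 58 sham spots and 76 and 86 MI spots. These counts were 1925 and 390 where the highest score had to be at least 0.5, 2272 and 518 without MI replicate 1, and 1568 and 559 without MI replicate 2. Thbs4, a thrombospondin of stressed heart muscle, was at 2.97 CPM in sham CM4 spots and at 24.9 and 65.1 CPM in MI. Ccl21a was at 46.0 CPM in sham CM4 spots and at 1.18 and 0.611 CPM in MI, and over whole sections at 6.77 against 1.42 and 1.54 CPM. Apln was at 68.6 CPM in sham CM4 spots and 31.2 and 28.1 CPM in MI. The median of all genes in CM4 spots was 0.12, above that in CM1 spots (0.03). Whether this offset moves with the count of shifted genes in CM4 spots was not tested.

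EC and EndoEC spots were few, from 31 to 80 per section. In EC spots 445 genes were shifted higher (3.48% of 12794 tested) and 256 lower (2%), and in EndoEC spots 581 (4.54%) and 487 (3.81%). Without MI replicate 1 these were 1681 and 1359 in EC and 1646 and 1660 in EndoEC spots, and without MI replicate 2 they were 958 and 804, and 1156 and 1228. Lbp, which binds bacterial lipopolysaccharide, was at 2.83 CPM in sham EC spots and 21.1 and 19.8 CPM in MI. Apold1 was at 52.3 CPM in sham EC spots and at 18.3 and 18.3 CPM in MI. The sterol synthesis enzyme Sqle was also lower there, at 27.9 against 9.09 and 10.46 CPM. Slc38a4 was at 122 CPM in sham EndoEC spots and at 43.9 and 41.7 CPM in MI, and Trim54, a ubiquitin ligase of striated muscle, at 5.92 against 23.3 and 23.6 CPM.

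A test of the difference between classes, with the section as a block, had 4 residual degrees of freedom. Before adjustment, 712 of 12934 genes had a limma p under 0.05, near the share that this threshold passes with no difference between classes. After adjustment the test called 1 gene (0.00773%). The gene was Ddc, which makes dopamine and serotonin from their precursors, with a limma F adjusted p of 0.00487. In CM1 spots Ddc was at 66.8 CPM in sham and at 109 and 218 CPM in MI. In CM4 spots it was at 89.2 CPM in sham and 52.9 and 90.1 CPM in MI, and in FB spots at 75.7 against 57.8 and 93.8 CPM. Its difference was lower in CM4 than in CM1 spots by 1.56 on the log2 scale, so Ddc was above sham in CM1 spots of both replicates, while in CM4 and FB spots replicate 1 lay below sham. With the 3 classes of at least 40 spots the test, with 2 residual degrees of freedom, called 19 of 12993 genes, among them Nppa, Thbs4, Fbln1 and Myl1. In the called genes other than Nppa, Ddc, Fbln1, Ccl21a and Cpz, sham CM4 spots lay below sham CM1 spots. Kri1 was at 2.02 CPM in sham CM4 against 14.6 CPM in sham CM1 spots, and at 17.2 and 13.4 CPM in MI CM4 spots. Nppa was at 295 CPM in sham CM1 spots against 77.8 and 498 CPM, and at 419 CPM in sham CM4 spots against 427 and 5163 CPM. Fbln1 had a limma F adjusted p of 0.0217 over the 3 classes together. Its difference in FB spots lay above that in CM1 spots by 1.00 on the log2 scale, which did not pass the test by itself (limma adjusted p = 0.0963). For other named genes, a difference in size between classes did not pass the test with 5 classes.

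**Figure D5:**
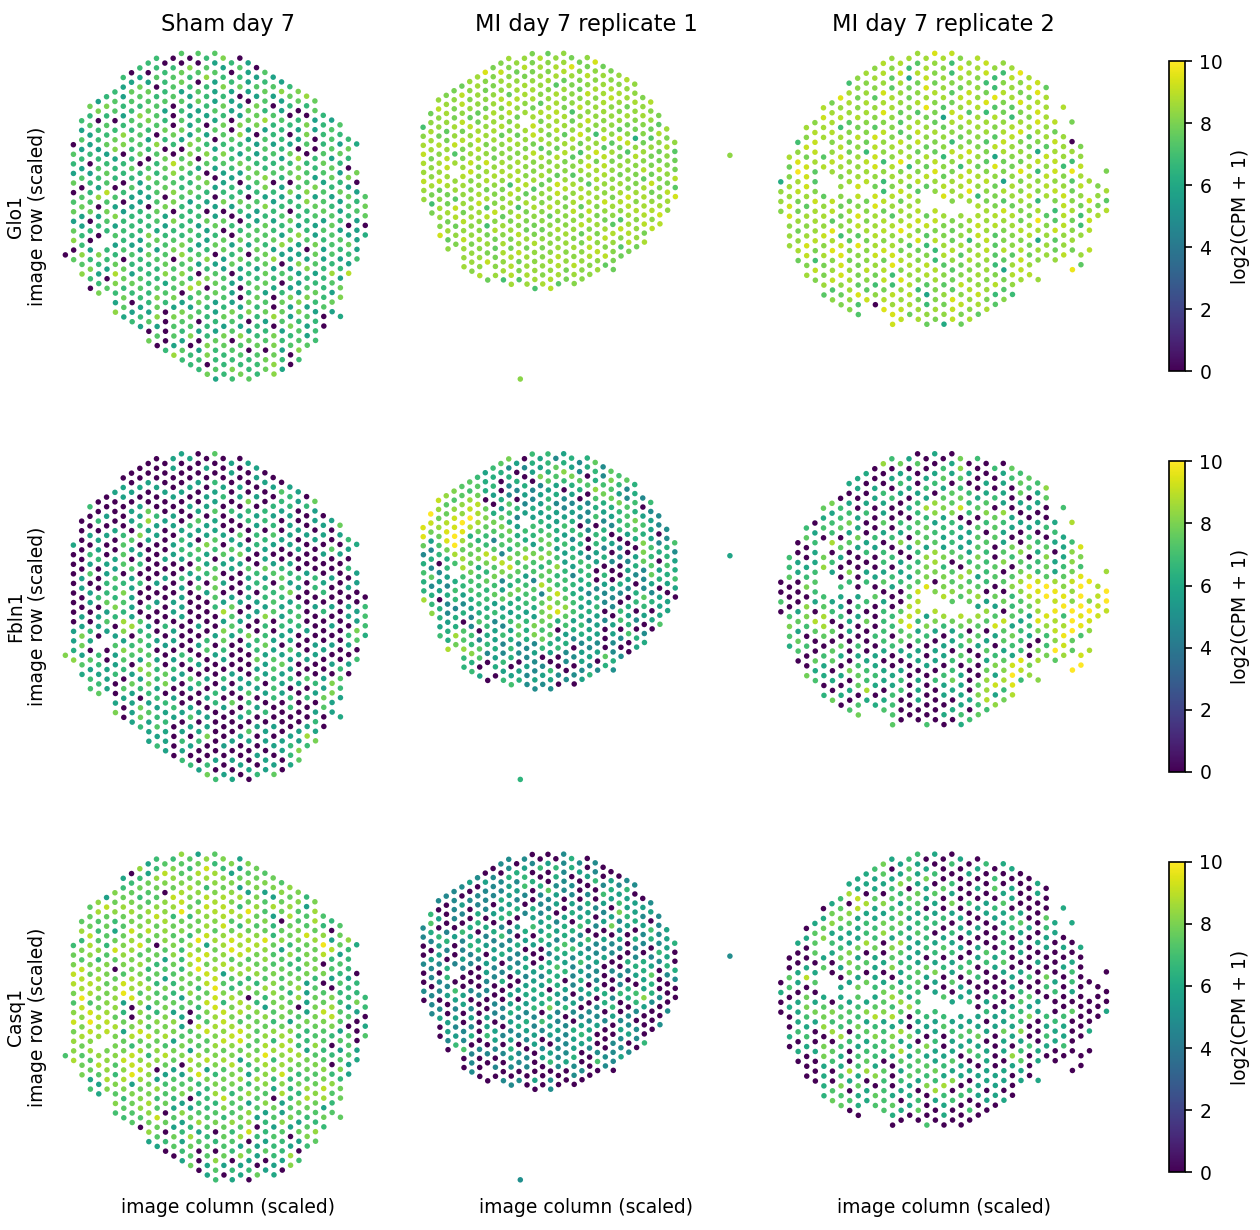
Kept spots of the 3 day 7 sections at their image positions (scaled, without units), coloured by log2(CPM + 1) of Glo1, Fbln1 and Casq1, with 1 colour scale per gene. Glo1 is higher over nearly the whole of both MI sections, Fbln1 is highest in a patch at 1 edge of each MI section, and Casq1 is lower across both.

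The patterns in the maps of spots differed between genes. The 10% of spots with the most Glo1 held 24.0% of its sum in sham and 15.3% and 18.2% in MI, so its MI level was spread over the section. For Fbln1 these shares were 38.6% in sham and 41.4% and 45.0% in MI. Lyz2 was more concentrated in replicate 2, with 70.3% of its sum in such spots against 39.9% in replicate 1 and 47.6% in sham.

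The class shares and the edge of the section were each changed in turn. Rebuilding each section from the 5 compared classes at its own class shares, a setting chosen after seeing the data, gave 110 genes shifted higher and 37 lower, and 137 of the 157 remained shifted. With the class shares of the sham section in place of its own, 186 were shifted higher and 41 lower, and 142 of the 157 remained shifted. The fibrillar collagen median was 0.46 at own shares and 0.73 at sham shares, and the fibroblast list median 0.38 and 0.72, against 0.61 and 0.46 over all spots. With interior spots alone, 114 were shifted higher and 30 lower, of which 123 were among the 157. In these, limma called 48 genes higher and 11 lower.

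The sections of day 3 gave a value for the shifted genes in sections that the rule had not used. The sham section of day 3 was deposited as raw counts and the MI section as corrected counts, with 1 section each, so no test was possible. Of the 121 genes shifted higher at day 7, 105 (86.8%) were higher in MI at day 3, where 52.6% of all genes were, and 69 were higher by at least 1.5-fold, where 8.34% of all genes were. Of the 36 shifted lower, 35 had a value and 26 (74.3%) were lower, where 47.4% of all genes were. Of these, 14 were lower by at least 1.5-fold, against 2.66% of all genes. AI506816 was at 1.31 CPM in sham and 74.3 CPM in MI at day 3, and Cyfip2 at 2.28 against 14.6 CPM. Glo1 was at 198 CPM in sham and 331 CPM in MI, and Fbln1 at 61.3 against 125 CPM. Lyz2 was at 49.0 CPM in sham and 729 CPM in MI at day 3, a wider gap than at day 7. Slc38a4 was at 156 against 76.3 CPM and Dek at 123 against 74.9 CPM. Apln was nearly level at 22.8 against 21.8 CPM. Exceptions in direction included Zfp945 at 32.2 against 12.5 CPM and Scd4 at 62.1 against 34.9 CPM among the higher genes, and AW112010 among the lower ones, at 3.3 CPM in sham and 13.2 CPM in MI.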

How the data were processed

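Spatial transcriptomes were made on the Visium platform, aligned to mm10 (GRCm38) with Space Ranger (version not given in the sources used here) and analysed with Seurat by the authors. For 4 sections the deposited gene values are sctransform-corrected counts, which the authors' software sets near a common depth within each section and rounds, and were treated as a score. For the sham section of day 3 the deposited table holds raw counts. The deposited metadata give raw UMI counts per spot, the spot position in image pixels, and 11 cell type prediction scores as a fraction that the authors transferred from earlier single-nucleus data. The 3 day 7 tables shared 14028 genes, of which 17 mt-, Hba- and Hbb- genes were left out. The sham table lists genes found in at least 5 spots. The MI replicate 2 table held 20 names turned into dates.

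Each spot was scaled to CPM and averaged over a section's spots, computed on spots with at least 1000 UMIs, and log2(CPM + 1) was compared with limma 3.58.1 (trend on, two-sided) in R 4.3.3, with Benjamini-Hochberg adjustment at 0.05. TMM factors came from edgeR 4.0.16, and other steps ran in Python 3.11.15. Both fits were run on simulated data to check the estimated size of set changes in genes of at least 20 CPM. The p-values were not checked in this way. Corrected values carry no counting depth, so count tests were not used. With 1 sham section, p-values measure the spread between the 2 MI sections.

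Genes named were, at 20 CPM or more, the 15 highest and 15 lowest by the smaller ratio, 3 per gene list, 5 per class and direction, and Nfe2l1 with its family. Others, such as Nppa, Acta1, Clu, Postn, Mrc1, Mki67, Top2a, Msln, Krt19, Hmox1, Cma1, Trem2 and Lgals3, were picked after their values were seen. The members and the 44 gene lists were chosen with earlier results of these data known, and the sterol list (1 added) after values had been seen. Gene positions are from GENCODE vM21. Alternatives covered the scaling, pseudocount, filters, spots, class shares and each replicate left out. Some genes are not reported here.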

Additional observations from a re-analysis of the deposited data

Results flagged for a closer look

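Ddc differed in its MI effect between the spot classes by the limma F test (adjusted p 0.00487 over 5 classes), with 4 residual degrees of freedom. It was higher in both MI replicates in CM1, EC and EndoEC spots.

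A few genes were listed in both MI tables and not in the sham table, which lists genes found in at least 5 spots. Of 285 such genes, 4 reached 1.5 CPM in both MI replicates. Gm10503 was at 18.6 CPM in MI replicate 1 and 20.9 CPM in replicate 2, in 419 and 267 spots, and at 5.79 CPM in sham and 21.2 CPM in MI at day 3. Trim12c was at 6.30 and 3.57 CPM, in 200 and 56 spots. Upk3b, a marker of mesothelium, was at 1.60 and 8.91 CPM, and Gm3716 at 1.52 and 1.76 CPM. In the other direction, 158 genes were listed for sham and in neither MI table, of which 2 reached 1.5 CPM.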

How the results depend on the processing

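With 1 sham section and 1 residual degree of freedom, limma called 0 genes in either direction under the settings of the report, and the calls depend on the setting. Genes called higher numbered 13 with mt- and globin genes kept in, 4 at a mean of at least 10 CPM, 14 with spots summed, 17 at the class shares of the sham section, 23 with the 5 classes at their own shares (chosen after seeing the data) and 48 with interior spots. Genes called lower numbered 1 with mt- and globin genes kept in, 5 with the 5 classes at their own shares and 11 with interior spots. TMM and median-of-ratios scaling, pseudocounts of 0.5 and 5, no filter, no trend and at least 5000 UMIs gave 0 calls. Genes higher in both MI replicates numbered 3205 with mt- and globin genes kept in and 3426 at 10 CPM. Genes shifted higher numbered 72 with mt- and globin genes kept in, 64 at a pseudocount of 5, 68 at 10 CPM and 186 at the sham class shares, and genes shifted lower 17 at a pseudocount of 5 and 17 at 10 CPM. The filter at 10 CPM tested fewer genes (8777). The cause was not tested for the other settings. None of the 157 shifted genes reversed in these settings.

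Leaving out either MI replicate removes the demand that replicates concur, and a single MI section was then set against a single sham section with no test. Counts ranged from 5393 to 5727 for genes lower in MI, from 279 to 366 for genes shifted higher and from 98 to 226 for genes shifted lower. In classes, genes shifted higher ranged from 300 to 405 in CM1, 1568 to 2272 in CM4, 798 to 1238 in FB, 958 to 1681 in EC and 1156 to 1646 in EndoEC spots. Genes shifted lower ranged from 135 to 289 in CM1, 518 to 559 in CM4, 351 to 870 in FB, 804 to 1359 in EC and 1228 to 1660 in EndoEC spots. With the highest score at least 0.5, CM4 spots gave 1925 genes shifted higher and 390 lower. The test between classes called 19 genes with 3 classes of at least 40 spots. For the named genes, under settings with a test, 1618 values kept their direction and their side of the threshold, 85 kept their direction and passed it, and 9 changed sign, none of them called. With the class shares of the sham section, the difference was 0.090 for Myh11, -0.10 for Lrtm1 and 0.11 for Mafg. With interior spots alone it was 0.087 for Btg2, 0.038 for Bach2 and 0.055 for Mafg. With mt- and globin genes kept in it was -0.020 for Lrtm1 and -0.031 for Nfe2l2, which under TMM scaling was at -0.00031. Of the values with 1 MI replicate left out, which had no test, 280 kept their direction and 6 did not. These ranged from -0.30 to 0.48 for Lrtm1, -0.87 to 0.040 for Cacng6, -0.15 to 0.40 for Ociad2, -0.014 to 0.11 for Nfe2l2, -0.16 to 0.056 for Bach2 and -0.16 to 0.14 for Mafg. The cause was not tested. No paired analysis was possible because the sham group has 1 section, so the groups share fewer than 2 replicate numbers.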

Other observations

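Vessel walls, antigen presentation and hypoxia gave further values. Of 11 pericyte and smooth muscle markers, 1 was higher and 3 were lower in both MI replicates, where 40.8% and 26.9% of all genes tested were. Among the lower ones, Myl9, the regulatory light chain of smooth muscle myosin, was at 760 CPM in sham and at 238 and 462 CPM in MI, and was not shifted because its replicates differed. Of 11 antigen presentation genes, 8 were higher (40.8% of all genes) and 1 lower (26.9%) in both replicates, with 0 shifted and a median of 0.43. Of 11 hypoxia genes, 10 were lower in both replicates (26.9% of all genes) and 0 were shifted. Of 13 genes of endoplasmic reticulum stress, 7 were higher and 2 lower in both replicates (40.8% and 26.9% of all genes), with a median of 0.08.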
